A study of Mus musculus with 6 samples.

Results

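The genes of antigen presentation by MHC class I were followed in nuclei of mouse brain tissue that the labels call brain tumor. The 10 members were picked by symbol from 32298 gene rows, 13 of which are vector sequences. They were the light chain gene B2m, the heavy chain genes H2-K1 and H2-D1, the peptide transporter genes Tap1 and Tap2, the loading factor gene Tapbp, the immunoproteasome genes Psmb8, Psmb9 and Psmb10, and Nlrc5. All 10 were found. The rule uses no measured value, but the list was drawn up with earlier results of these data known. RNA and chromatin accessibility were read from the same nuclei by Multiome sequencing.

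The tissue came from mice after in utero electroporation of ganglionic eminence progenitors of C57BL/6J embryos. All animals received a transposase and piggyBac vectors in which the CAG promoter drives V5-tagged FOXR2 with GFP, or the luciferase Akaluc with GFP. The Foxr2 p53LOF animal also received Cas9 with a guide to Trp53, and Foxr2 alone denotes Foxr2 overexpression without p53 LoF. A Cas9 vector with a control guide was also used in the study. The CAG promoter is active in most cell types, only electroporated cells and their descendants carry the vectors, and so the dissected tissue can hold cells with and without the vectors. The tissue label is the same for both genotypes and does not say how much of a sample was tumor. The age at collection was not given in the sources used here. Counts of 2 libraries were used, Foxr2 p53LOF replicate 1 and Foxr2 alone replicate 1. Genotype, library and dissected tissue cannot be told apart between them, and there was no replicate check, so no test was made. Intervals are 95% Poisson or exact Clopper-Pearson intervals and cover counting error only. Of Foxr2 alone replicate 2 only the peaks and barcodes were read, with counts not analysed here.

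MHC class I shows fragments of a cell's own proteins to CD8 T cells. The immunoproteasome cuts proteins into peptides, the TAP transporter carries these into the endoplasmic reticulum, tapasin helps to load them, and heavy chain with beta-2-microglobulin holds them at the cell surface. Neurons and most glia of the healthy brain are known for low class I expression, and interferon is a known inducer of the whole set through IRF1 and NLRC5, among others.

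Promoter sequence is shown for 4 members whose RNA or accessibility differed widely between classes. These are the 250 bases before the RefSeq start in GRCm38.p6, in the direction of the gene. The windows were B2m at chr2:122147437-122147686 on the plus strand, H2-K1 at chr17:34000348-34000597 on the minus strand, H2-D1 at chr17:35262844-35263093 on the plus strand and Tap1 at chr17:34187306-34187555 on the plus strand. Capitals mark matches, on either strand, to the interferon-stimulated response element core GAAANNGAA, the CCAAT box, the cyclic AMP response element core TGACG and the class I kappa B site GGGANTCCC.
B2m: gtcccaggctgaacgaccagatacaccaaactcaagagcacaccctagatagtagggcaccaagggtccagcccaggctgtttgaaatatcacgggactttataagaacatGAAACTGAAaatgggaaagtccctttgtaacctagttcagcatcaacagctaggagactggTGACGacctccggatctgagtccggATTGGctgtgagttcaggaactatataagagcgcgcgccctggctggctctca
H2-K1: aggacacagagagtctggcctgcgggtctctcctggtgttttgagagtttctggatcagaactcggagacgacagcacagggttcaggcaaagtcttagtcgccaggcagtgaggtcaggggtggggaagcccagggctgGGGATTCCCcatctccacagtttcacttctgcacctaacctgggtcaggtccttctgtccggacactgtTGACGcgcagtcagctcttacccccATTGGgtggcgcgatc
H2-D1: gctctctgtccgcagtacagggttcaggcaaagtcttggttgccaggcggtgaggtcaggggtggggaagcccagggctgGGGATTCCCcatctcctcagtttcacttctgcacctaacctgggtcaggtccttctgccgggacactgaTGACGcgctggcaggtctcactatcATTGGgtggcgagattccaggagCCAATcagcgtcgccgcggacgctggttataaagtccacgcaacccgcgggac
Tap1: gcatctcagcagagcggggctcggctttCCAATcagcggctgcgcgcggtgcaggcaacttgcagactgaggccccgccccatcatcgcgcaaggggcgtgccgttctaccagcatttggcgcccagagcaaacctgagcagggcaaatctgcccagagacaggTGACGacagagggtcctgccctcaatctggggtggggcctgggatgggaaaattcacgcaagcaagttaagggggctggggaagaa

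The H2-K1 and H2-D1 windows shared an unbroken stretch of 47 bases that includes the site GGGATTCCC. This letter pattern was found in 2 of the 8 members with a RefSeq entry and in 0.639% of 32536 promoters. The exact letters GAAANNGAA of the response element core were found in B2m alone, as GAAACTGAA 139 bases before the start, against 7.15% of all promoters. Other spellings of this element were not searched, so the other members may hold one. The gamma-activated site TTCNNNGAA was found in Psmb8 alone, as TTCCCAGAA 97 bases before the start, against 7.04% of promoters. CCAAT was present in 6 of 8 members (33.8% of promoters) and TGACG in 5 of 8 (17.9%). The matches overlapped none of one another in the printed windows. A match is a description of letters and not of binding. Tap1 and Psmb9 are read in opposite directions from RefSeq starts with 225 bases between them, so that their windows largely coincide. Their CCAAT and TGACG matches are the same sites read from opposite strands, so each site enters these counts for both genes. The starts of the deposited annotation differ from these for some genes. That of Psmb9 is at 34187764 against 34187330 in RefSeq, which puts it past the Tap1 start, and that of H2-D1 is at 35262730, so that the printed H2-D1 window lies after the deposited start.

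After filters, 8413 nuclei remained in Foxr2 p53LOF and 8327 in Foxr2 alone, with a median of 5578 and 3632 UMIs. Clusters were named from marker genes, with the members kept out of the genes that shaped them. Tumor glia were 3 glia-like clusters of Foxr2 p53LOF, 2517 nuclei in all, whose counts on the vector chromosome exceeded those of immune nuclei at least 3-fold, and 688 of them (27.3%) held a vector count. GFP RNA stood at 653 CPM (UMIs per 1000000 UMIs of the class) in tumor glia, and at 76.3 in neuron-like, 189 in oligodendrocyte-like and 214 in myeloid-like nuclei of that library. Trp53 RNA was 52.6 CPM in tumor glia and 13.8 CPM in neuron-like nuclei, which does not show whether the guide had cut. The Foxr2 alone library had 0 peaks on the vectors, so tumor and host nuclei were not separated there, and GFP RNA ran from 0 CPM in vascular-like to 148 CPM in astrocyte-like nuclei. The 2 count libraries had 140 barcodes in common.

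Tumor glia carried RNA of all 10 members. Summed over the members they held 2115 CPM (2096 to 2134), against 316 CPM (309 to 323) in neuron-like nuclei of the same library. All 10 were at least 2-fold higher in tumor glia than in neuron-like nuclei, where 28.9% of 11150 genes of at least 10 CPM were. The median log2 ratio was 2.50 for the members and 0.38 for those genes. Psmb9, at 45.0 and 6.25 CPM, reached 10 CPM through tumor glia alone, so it could not have been counted as lower. Against oligodendrocyte-like nuclei of the same library, which held 2502 CPM (2453 to 2551), 1 of 10 members was at least 2-fold higher, where 28.3% of genes were. Against myeloid-like nuclei, at 2957 CPM (2915 to 2999), 1 of 10 was at least 2-fold lower, where 16.8% of genes were. The members' median log2 ratios were -0.07 and -0.33, and those of all genes 0.40 and 0.13. T/NK-like nuclei had the highest summed level, 4049 CPM (3856 to 4250) in 117 nuclei. At Leiden resolution 1.0 the T/NK-like cluster, of 143 nuclei, held 3318 CPM, and the highest myeloid-like cluster 3201 CPM. Vascular-like nuclei stood at 2031 CPM (1864 to 2208), an interval that includes the tumor glia level, and OPC-like nuclei at 1536 CPM (1402 to 1678).

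**Figure D1:**
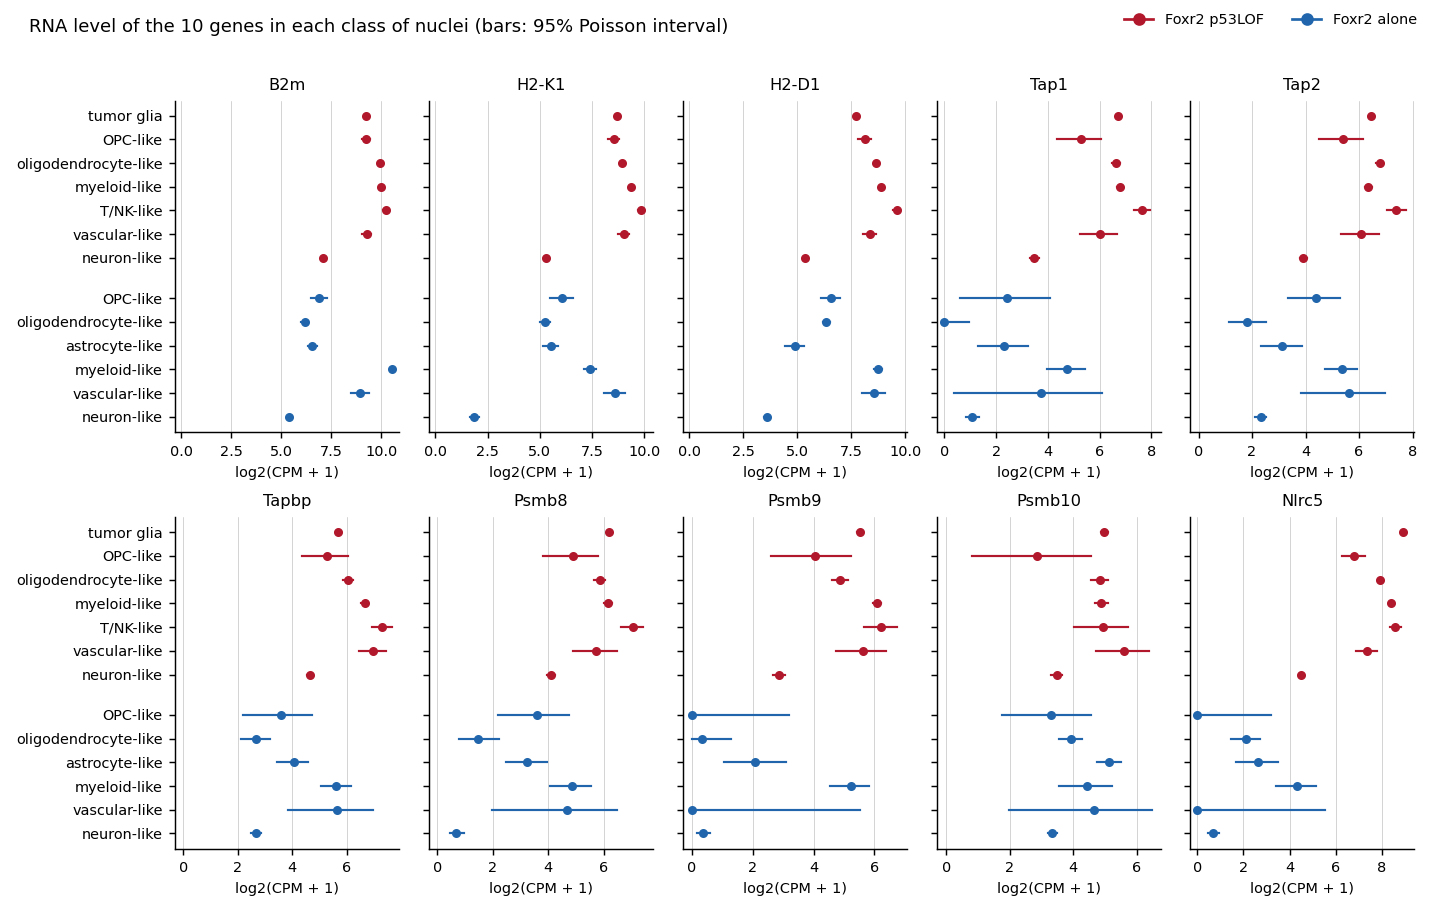
RNA level of each member as log2(CPM + 1) in each class of nuclei, red for Foxr2 p53LOF and blue for Foxr2 alone, with points for all nuclei of a class together and bars for the 95% Poisson interval. Tumor glia lie to the right of neuron-like nuclei in all 10 panels, and the oligodendrocyte-like class shifts between libraries for 9 of 10 members by at least 2-fold.

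B2m encodes the light chain shared by all class I molecules. Its level was 612 CPM (602 to 622) in tumor glia, 988 in oligodendrocyte-like, 1032 in myeloid-like, 1204 in T/NK-like and 134 in neuron-like nuclei of Foxr2 p53LOF. In the Foxr2 alone library it was 71.2 CPM in oligodendrocyte-like, 93.4 in astrocyte-like, 41.0 in neuron-like and 1494 in myeloid-like nuclei. Tumor glia thus held 4.56-fold more than neuron-like nuclei (4.39 to 4.73), while oligodendrocyte-like nuclei held 1.61-fold more than tumor glia (1.56 to 1.67). Myeloid-like nuclei were the only class with lower B2m in Foxr2 p53LOF than in Foxr2 alone among oligodendrocyte-like, OPC-like, myeloid-like and neuron-like nuclei, at a log2 ratio of -0.53 (-0.64 to -0.43).

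The classical heavy chains H2-K1 and H2-D1 are related in sequence, and reads may have been split between them and other class I genes. H2-K1 was at 411 CPM in tumor glia, 482 in oligodendrocyte-like, 659 in myeloid-like and 38.6 in neuron-like nuclei of Foxr2 p53LOF. In the Foxr2 alone library it was at 36.9 CPM in oligodendrocyte-like, 168 in myeloid-like and 2.66 in neuron-like nuclei. H2-D1 was at 212, 402, 473 and 40.4 CPM in the same 4 classes of Foxr2 p53LOF. H2-D1 was the member at least 2-fold lower in tumor glia than in myeloid-like nuclei, which held 2.23-fold more (2.13 to 2.33). Between the libraries the myeloid-like level of H2-K1 was 3.93-fold higher in Foxr2 p53LOF (3.21 to 4.86), and that of H2-D1 1.12-fold (0.984 to 1.28), an interval that spans no difference.

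Tap1 and Tap2 form the transporter that moves peptides into the endoplasmic reticulum. Tap1 was at 104 CPM in tumor glia, 98.0 in oligodendrocyte-like, 109 in myeloid-like and 10.2 in neuron-like nuclei of Foxr2 p53LOF. Tap2 was at 85.8, 109, 80.5 and 14.1 CPM in these classes. For Tap1 the interval of the ratio included no difference both between tumor glia and oligodendrocyte-like nuclei (0.955- to 1.18-fold) and between tumor glia and myeloid-like nuclei (0.875- to 1.04-fold). In the 3023 oligodendrocyte-like nuclei of Foxr2 alone, Tap1 had 0 of 3932150 UMIs and Tap2 had 10. With a floor of 3 counts over the class, Tap1 was at least 128-fold higher in oligodendrocyte-like nuclei of Foxr2 p53LOF than of Foxr2 alone. Tap2 was 42.8-fold higher (23.04 to 89.8).

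Tapbp encodes tapasin, which bridges the transporter and empty class I molecules. It was at 50.2 CPM in tumor glia, 65.8 in oligodendrocyte-like, 100.2 in myeloid-like and 24.0 in neuron-like nuclei of Foxr2 p53LOF. Of the 10 members its ratio between tumor glia and neuron-like nuclei was the smallest, 2.09-fold (1.90 to 2.31), and that interval reached below 2-fold.

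Psmb8, Psmb9 and Psmb10 encode the catalytic subunits that replace the constitutive ones in the immunoproteasome. In tumor glia they were at 72.6, 45.0 and 30.7 CPM. In oligodendrocyte-like nuclei of Foxr2 p53LOF they were at 56.7, 28.5 and 27.5 CPM, and in those of Foxr2 alone at 1.78, 0.254 and 14.2 CPM, the second on 1 UMI. Psmb8 and Psmb9 differed widely between the libraries there, at 31.9-fold (15.2 to 80.1) and at 112-fold with an interval from 19.7-fold upward. Psmb10 was the exception, at 1.93-fold (1.39 to 2.71), and in neuron-like nuclei at 1.10-fold (0.932 to 1.31), an interval that spans no difference.

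Nlrc5 encodes the transactivator of class I genes. It was at 491 CPM (482 to 500) in tumor glia, 244 in oligodendrocyte-like, 337 in myeloid-like, 384 in T/NK-like and 21.9 in neuron-like nuclei of Foxr2 p53LOF. In the Foxr2 alone library it was at 3.31 CPM in oligodendrocyte-like, 5.19 in astrocyte-like, 19.02 in myeloid-like and 0.605 in neuron-like nuclei. Nlrc5 was the member at least 2-fold higher in tumor glia than in oligodendrocyte-like nuclei, at 2.01-fold with an interval of 1.89 to 2.15 that reaches below 2-fold. It also had the widest gap of all members to neuron-like nuclei, 22.4-fold (20.6 to 24.5). Its myeloid-like level was 17.7-fold higher in Foxr2 p53LOF than in Foxr2 alone (9.87 to 35.5), on 11 UMIs in the latter.

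Within tumor glia the members varied little in sum and more one by one. The COP-like cluster (1236 nuclei, led by genes of committed oligodendrocyte precursors such as Bmp4 and Enpp6) held 2060 CPM and the astrocyte-like cluster (1156 nuclei, led by Egfr) 2183 CPM, a ratio of 1.06-fold (1.04 to 1.08). Tap2 was at 125 CPM in the astrocyte-like and 50.4 CPM in the COP-like cluster, 2.48-fold (2.25 to 2.74), and Tap1 was 1.53-fold higher there (1.40 to 1.66). H2-D1 and Psmb10 went the other way, at 1.35- and 1.43-fold higher in the COP-like cluster. A small cluster of 125 nuclei led by mature astrocyte genes such as Gja1 and Etnppl held 2000 CPM. Its Nlrc5 level was 114 CPM against 503 CPM in the other tumor glia, a log2 ratio of -2.14 (-2.47 to -1.82), while B2m was 1.44-fold (1.33 to 1.57), Psmb8 1.82-fold (1.45 to 2.25) and Psmb10 2.22-fold (1.61 to 3.00) higher. Its vector counts were 20.6 per 1000000 counts in peaks, against 54.5 and 65.0 in the other 2 clusters and 4.49 in immune nuclei. Of its nuclei 5.6% held a vector count, against 26.7% in the COP-like and 30.4% in the astrocyte-like cluster. Whether it also held host astrocytes was not tested.

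**Figure D2:**
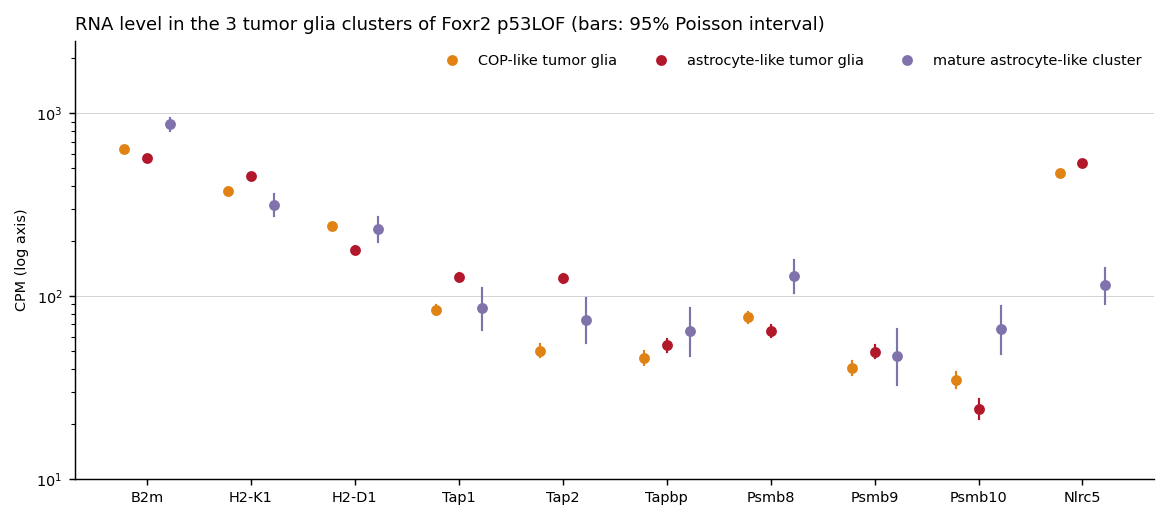
RNA level in CPM, on a log axis, of each member in the 3 tumor glia clusters of Foxr2 p53LOF, with 95% Poisson intervals as bars. Tap2 is higher in the astrocyte-like cluster (125 against 50.4 CPM), and Nlrc5 is lower in the mature astrocyte-like cluster (114 CPM).

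Tumor nuclei with and without a vector count differed little in the sum. The 688 tumor nuclei with a vector count held 2181 CPM and the 1829 without held 2085 CPM, 1.05-fold (1.03 to 1.07). The 855 nuclei with a UMI of Mki67 or Top2a, genes of dividing cells, held 2194 CPM and the others 2057 CPM, 1.07-fold (1.05 to 1.09). The single members differed by at most 1.17-fold in the first comparison, for Tapbp, and by at most 1.23-fold in the second, for H2-D1. A split by single UMIs of these genes is coarse, and at Leiden resolution 1.0 a cluster of 114 tumor glia led by genes of dividing cells such as Cdc25c and Kif11 went the other way. It held 1675 CPM of the summed members and 404 CPM of B2m, against 2241 and 588 CPM in the largest astrocyte-like tumor cluster of 1049 nuclei.

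Per nucleus, the members were read in most tumor glia. After each nucleus was thinned to 1000 UMIs, 81.9% of 2435 tumor nuclei had a UMI of at least 1 member (80.3 to 83.4), with 82 shallower nuclei left out and a median depth of 7773 UMIs before thinning. The share was 28.1% of 2262 neuron-like nuclei of the same library (26.3 to 30.02), at a median depth of 9982 UMIs. It was 84.7% in oligodendrocyte-like, 92.2% in myeloid-like and 97.3% in T/NK-like nuclei. Without thinning the shares were 98.7% in tumor glia and 91.6% in neuron-like nuclei. In Foxr2 alone the thinned share was 15.3% of 2107 oligodendrocyte-like nuclei (13.8 to 16.9), with 916 left out, 6.57% of 4230 neuron-like nuclei with 17 left out and 80.8% of 281 myeloid-like nuclei with 144 left out. Their median depths before thinning were 1325, 7320 and 1291 UMIs. Tap1 was read in 0 of 2107 of these oligodendrocyte-like nuclei, which allows a share of up to 0.175% of nuclei with a UMI at this depth and sets no limit on nuclei that express it, and in 9.14% of 1510 in Foxr2 p53LOF. Nuclei with 6 or more UMIs of the members made up 5.09% of tumor glia, 15.1% of myeloid-like, 31.2% of T/NK-like and 0% of neuron-like nuclei of Foxr2 p53LOF.

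**Figure D3:**
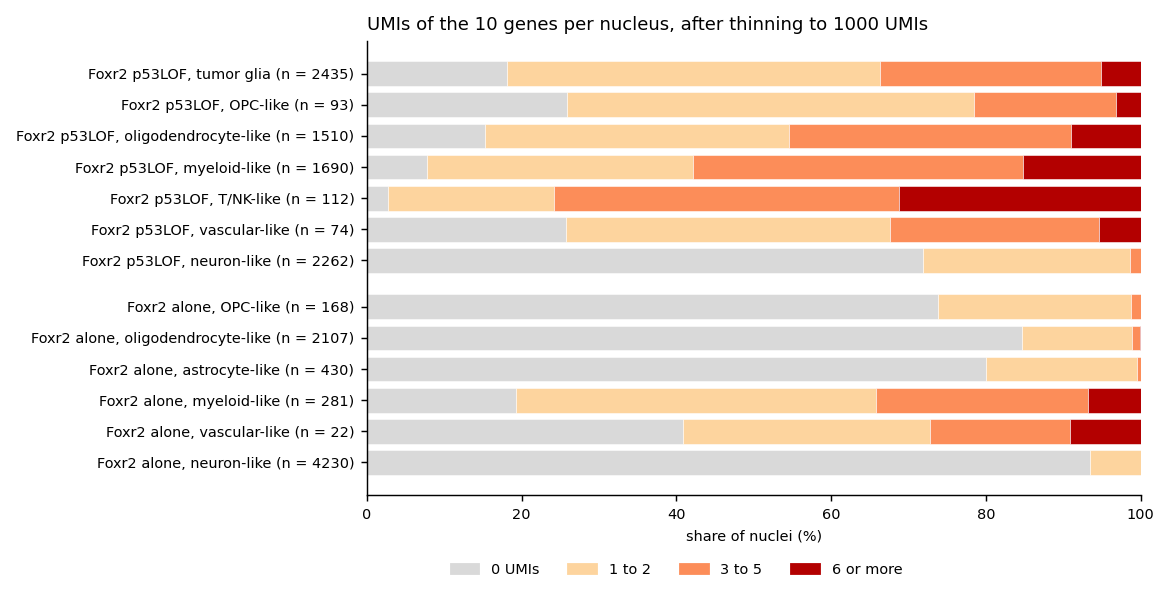
Share of nuclei, in percent, with 0, 1 to 2, 3 to 5 or 6 and more UMIs of the 10 members after thinning to 1000 UMIs, for each class and library, with n the nuclei kept. Nuclei with 0 UMIs make up 18.1% of tumor glia, 71.9% of neuron-like nuclei of Foxr2 p53LOF and 84.7% of oligodendrocyte-like nuclei of Foxr2 alone.

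RNA of GFP and of immune markers was also found in other classes, and was set beside the members. In Foxr2 p53LOF, GFP in neuron-like nuclei was 11.7% of the tumor level and the summed members 14.9%. In oligodendrocyte-like nuclei GFP was 29.0% and the members 118% of the tumor level, and in myeloid-like nuclei 32.8% and 140%. In tumor glia the 8 myeloid markers summed to 3.00% of their myeloid-like level and Cd74, a class II chaperone of myeloid cells, to 7.63%, while the members were at 71.5% of the myeloid-like level. In oligodendrocyte-like nuclei the myeloid markers were at 2.36% and the members at 84.6% of that level. The 9 T/NK markers summed to 0.637% of their T/NK-like level in tumor glia and 0.271% in oligodendrocyte-like nuclei. In T/NK-like and vascular-like nuclei GFP stood at 65.6% and 39.6% of the tumor level. The myeloid markers there were at 26.0% and 9.78% of their myeloid-like level, and Cd74 at 29.4% and 13.8%. Whether this RNA came from other cells or from the nuclei themselves was not tested, nor was its part in the members' levels.

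Between the libraries, 9 of 10 members were at least 2-fold higher in oligodendrocyte-like nuclei of Foxr2 p53LOF than of Foxr2 alone, where 13.3% of 9709 genes were. Of these, Tap1, Tap2, Tapbp, Psmb8, Psmb9 and Nlrc5 reached 10 CPM through Foxr2 p53LOF alone and could not have been counted as lower. The median log2 ratio of the members was 4.39, with Tap1 at its bound, and that of all genes was -0.06. The summed level was 2502 CPM in Foxr2 p53LOF and 216 CPM (202 to 231) in Foxr2 alone, 11.6-fold. In OPC-like nuclei, 93 in Foxr2 p53LOF and 168 in Foxr2 alone, 9 of the 9 members of at least 10 CPM were higher, where 10.6% of genes were, and the sums were 1536 and 333 CPM. Psmb10, on 2 and 4 UMIs, was not counted there, and the intervals of Psmb8 (2.57-fold, 0.773 to 9.76, on 9 and 5 UMIs) and Tap2 (2.06-fold, 0.815 to 5.46, on 13 and 9 UMIs) included no difference. Psmb9, on 5 and 0 UMIs, and Nlrc5, on 35 and 0, count as bounds against a floor of 3 counts. Tap1, Psmb9 and Nlrc5 reached 10 CPM there through Foxr2 p53LOF alone, as did all but B2m and H2-D1 of those counted in neuron-like nuclei, so these could not have been counted as lower. In neuron-like nuclei 8 of the 9 members of at least 10 CPM were higher, where 13.4% of genes were, and the sums were 316 and 76.0 CPM. Psmb9 was below 10 CPM in both and not counted, at 6.25 and 0.272 CPM. In myeloid-like nuclei 6 of 10 were higher, where 16.5% of genes were, and the sums were 2957 and 2302 CPM, 1.28-fold (1.22 to 1.36). B2m, at 1032 and 1494 CPM, was lower in Foxr2 p53LOF and weighs on these sums. The 6 were H2-K1, Tap1, Tap2, Tapbp, Psmb8 and Nlrc5, and the intervals of Tap2, Tapbp and Psmb8 reached below 2-fold. The members' median log2 ratio was 1.69 in OPC-like, 2.67 in neuron-like and 1.03 in myeloid-like nuclei, against -0.22, -0.05 and -0.14 for all genes. In vascular-like nuclei, 76 in Foxr2 p53LOF and 29 in Foxr2 alone, the sums were 2031 and 1424 CPM. The median log2 ratio of the members there was 0.72, with Psmb9 and Nlrc5 at their bounds, against -0.07 for all genes.

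GFP was also higher in Foxr2 p53LOF, though not in proportion to the members. In Foxr2 p53LOF it was at 189 CPM in oligodendrocyte-like, 192 in OPC-like, 214 in myeloid-like and 76.3 CPM in neuron-like nuclei, and in Foxr2 alone at 58.7, 99.2, 20.8 and 19.2 CPM. As alternatives chosen after seeing the data, the members' UMIs expected from tumor glia at the GFP ratio were taken off in Foxr2 p53LOF only, since no tumor glia were set apart in Foxr2 alone. This takes all GFP in these classes as coming from tumor glia, which was not tested. Only the members were reduced, so no share of all genes stands beside the counts after it. The sum then fell from 2502 to 1889 CPM in oligodendrocyte-like nuclei, the log2 ratio between libraries went from 3.53 to 3.13, and 9 members were still at least 2-fold higher. In OPC-like nuclei it fell from 1536 to 914 CPM, the log2 ratio went from 2.21 to 1.46, and 4 members in place of 9 were at least 2-fold higher, namely B2m, H2-K1, H2-D1 and Tapbp. Tap2 and Psmb8 came out lower there than in Foxr2 alone, and Nlrc5 below 0. In myeloid-like nuclei the sum fell from 2957 to 2262 CPM, below the 2302 CPM of Foxr2 alone, so that the direction turned (log2 ratio -0.025). Among neuron-like nuclei it fell from 316 to 68.7 CPM, below the 76.0 CPM of Foxr2 alone, and the log2 ratio went from 2.06 to -0.14. With H2-K1, Tap1 and Nlrc5, which came out below 0 there, set to 0, it was 0.61. The direction of the summed difference among myeloid-like nuclei thus rests on whether these UMIs are taken off. Among neuron-like nuclei it turned only with the members below 0 kept. Of the 6 members called higher in myeloid-like nuclei, 3 were still at least 2-fold higher after it, H2-K1, Tap1 and Nlrc5 at log2 ratios of 1.64, 1.54 and 3.20. Of the 8 among neuron-like nuclei 1 was, Tapbp at 1.75, with Psmb8 left below 10 CPM.

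Oligodendrocyte-like and myeloid-like nuclei of the 2 libraries fell almost wholly in different clusters. Of the oligodendrocyte-like nuclei, 3021 of 3023 in Foxr2 alone fell in 1 cluster, with a median of 1171 UMIs, and all 1524 in Foxr2 p53LOF in another, with a median of 2447 UMIs. Of the myeloid-like nuclei, 415 of 425 in Foxr2 alone fell in a cluster with Ly86 and C1qa among its leading genes, which held 3 from Foxr2 p53LOF. Those of Foxr2 p53LOF were spread over a cluster led by Mmp12 (803 nuclei), one with P2ry12 and Siglech (719) and one led by Clec9a (196). OPC-like nuclei of both libraries fell in 1 cluster. The largest neuron-like clusters also differed between the libraries, since that of Foxr2 p53LOF, with 1803 nuclei, had Htr2c among its leading genes, and that of Foxr2 alone, with 2030 nuclei, had Drd2 and Adora2a. The part of cluster composition in the differences was not tested.

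Promoter accessibility was read in the same nuclei, in peaks that overlap 1000 bases before to 100 bases after the start of each gene. In all 3 libraries, 9 members had 1 such peak. For Tap2 the nearest peak began 563 to 621 bases after its start, so it was not counted. Tap1 and Psmb9 share 1 peak, which leaves 8. In the p53LOF library the peaks (mm10) were chr2:122147206-122148111 for B2m, chr17:33999909-34000797 for H2-K1, chr17:35262567-35263447 for H2-D1, chr17:34187057-34187979 for Tap1 with Psmb9, chr17:34197372-34198018 for Psmb8, chr17:33919164-33919973 for Tapbp, chr8:105937835-105938671 for Psmb10 and chr8:94433839-94434705 for Nlrc5. Each spans the start of its gene, so that it covers the promoter and the first bases of the transcript, and the printed windows of B2m, H2-K1, H2-D1 and Tap1 lie within these peaks.

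Summed over the 8 peaks, tumor glia held 317 FPM (307 to 326), that is fragments per 1000000 fragments in peaks of the class, neuron-like nuclei 188 (180 to 197), oligodendrocyte-like nuclei 351 (333 to 369) and myeloid-like nuclei 503 (485 to 521). The ratio of tumor glia to neuron-like nuclei was 1.68-fold (1.59 to 1.78), against 6.70-fold for the summed RNA. At the threshold of 2-fold, 2 of 8 peaks were higher in tumor glia than in neuron-like nuclei, where 8.86% of promoter peaks were. These were Nlrc5, at 35.2 against 10.1 FPM or 3.50-fold (2.81 to 4.39), and Psmb10, at 20.2 against 9.76 or 2.07-fold (1.63 to 2.64), and H2-K1 lay just under the threshold at 1.99-fold. Psmb10 reached 10 FPM through tumor glia alone, so it could not have been counted as lower. The median log2 ratio was 0.84 for the 8 peaks and -0.17 for all promoter peaks. The Tap1 and Psmb9 peak was at 64.9 in tumor glia and 37.6 in neuron-like nuclei, 1.73-fold (1.53 to 1.96), where the RNA of Tap1 differed 10.2-fold. The Nlrc5 peak differed little between tumor glia, oligodendrocyte-like (40.4) and myeloid-like nuclei (37.0), with intervals of the ratio from 0.729- to 1.04-fold and from 0.813- to 1.12-fold. The B2m, H2-K1, H2-D1 and Tapbp peaks were 1.83-, 1.93-, 1.91- and 1.90-fold higher in myeloid-like nuclei than in tumor glia.

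**Figure D4:**
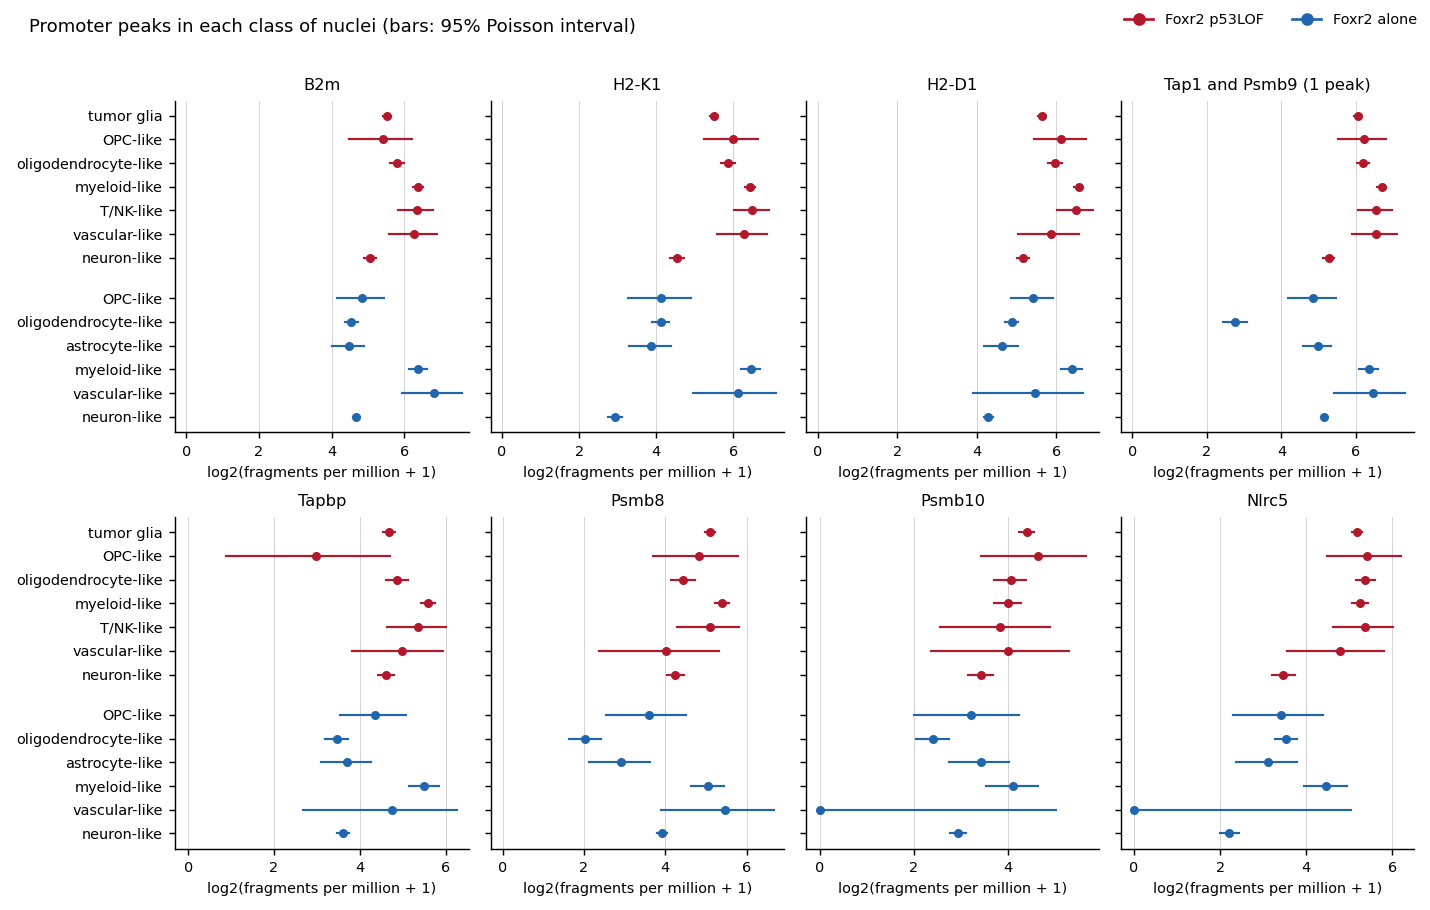
Accessibility of the 8 promoter peaks as log2(FPM + 1) in each class, where FPM is the plotted fragments per 1000000, red for Foxr2 p53LOF and blue for Foxr2 alone, with 95% Poisson intervals as bars. The Tap1 and Psmb9 peak is low in oligodendrocyte-like nuclei of Foxr2 alone (5.76 FPM) and at 34.3 in neuron-like nuclei of the same library.

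Between the libraries the classes differed in how far accessibility went with RNA. Peaks were called in each library on its own, so widths differ somewhat, from 647 and 864 bases for Psmb8 as the widest gap. In oligodendrocyte-like nuclei all 9 members with a peak were at least 2-fold higher in Foxr2 p53LOF, where 2.60% of 11459 genes were, with a median log2 ratio of 1.87 against -0.13 for all genes. The count is by gene, so the peak shared by Tap1 and Psmb9 enters for both. Tap1, Psmb9, Tapbp, Psmb8 and Psmb10 reached 10 FPM through Foxr2 p53LOF alone and could not have been counted as lower. The Tap1 and Psmb9 peak was at 5.76 FPM in Foxr2 alone and 71.5 FPM in Foxr2 p53LOF, 12.4-fold (9.38 to 16.7), and the Psmb8 peak at 3.07 and 20.7 FPM, 6.74-fold (4.44 to 10.5). B2m, H2-K1, H2-D1 and Nlrc5 stood at 2.44-, 3.54-, 2.19- and 3.83-fold. Psmb10, whose RNA differed 1.93-fold, stood at 3.65-fold (2.46 to 5.48).

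In OPC-like nuclei the summed peaks were at 339 FPM in Foxr2 p53LOF, on 98 fragments, and at 162 FPM in Foxr2 alone, on 117, 2.09-fold (1.58 to 2.76). The members' median log2 ratio was 1.39 and that of all genes -0.07. Tapbp had the opposite sign to its RNA, with 6.91 and 19.4 FPM on 2 and 14 fragments, 0.357-fold with an interval of 0.0394 to 1.55 that includes no difference, while its RNA was at 37.8 and 11.03 CPM.

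In myeloid-like nuclei 0 of 9 members with a peak were at least 2-fold higher, where 3.62% of genes were, and the summed peaks were at 503 and 447 FPM, 1.13-fold (1.04 to 1.22). The members' median log2 ratio was 0.17 and that of all genes -0.18. H2-K1 was at 85.4 and 86.7 FPM, while its RNA differed 3.93-fold. Nlrc5 was at 37.0 and 21.0, 1.76-fold (1.21 to 2.63), while its RNA differed 17.7-fold. Accessible promoters of most members were thus present in myeloid-like nuclei of both libraries. Per fragment in all peaks, counting error did not separate their levels, apart from Tap1 with Psmb9 (1.27-fold, 1.05 to 1.56) and Nlrc5. Fragments in promoters made up 49.6% of myeloid-like fragments in Foxr2 p53LOF and 55.0% in Foxr2 alone. Per fragment in promoters, the summed peaks were at 1.25-fold, without an interval. H2-K1 was at 1.09-fold, B2m at 1.10-fold and Psmb10 at 1.02-fold. Tapbp was at 1.18-fold, H2-D1 at 1.25-fold, Psmb8 and Tap1 with Psmb9 at 1.41-fold and Nlrc5 at 1.95-fold.

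In neuron-like nuclei 3 of the 8 members of at least 10 FPM were at least 2-fold higher in Foxr2 p53LOF, where 10.7% of genes were, and the median log2 ratio was 0.53 against 0.35 for all genes. These were H2-K1 at 3.36-fold (2.76 to 4.10), Nlrc5 at 2.77-fold (2.08 to 3.67) and Tapbp at 2.08-fold (1.75 to 2.47). H2-K1 and Nlrc5 reached 10 FPM through Foxr2 p53LOF alone, so they could not have been counted as lower. The Tap1 and Psmb9 peak was at 37.6 and 34.3 FPM, 1.09-fold (0.969 to 1.24), although the RNA of Tap1 differed 9.08-fold. Fragments in promoters made up 47.0% of neuron-like fragments in Foxr2 p53LOF and 36.7% in Foxr2 alone. Per fragment in promoters, Tapbp was at 1.63-fold, H2-K1 at 2.63-fold and Nlrc5 at 2.16-fold.

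**Figure D5:**
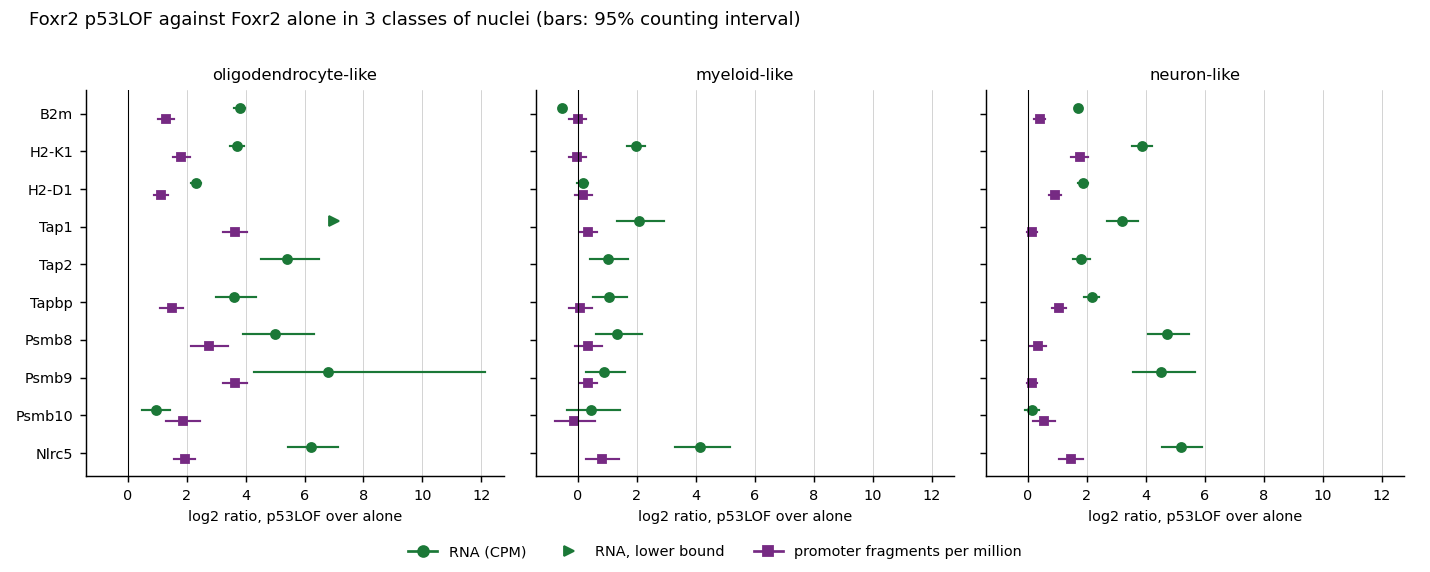
Log2 ratio between the libraries, Foxr2 p53LOF over Foxr2 alone, for each member in 3 classes, green for RNA and purple for promoter fragments, with 95% counting intervals as bars and a triangle for a lower bound. In oligodendrocyte-like nuclei both measures lie right of 0 for all members with a peak, and in myeloid-like nuclei most promoter points lie near 0 while Nlrc5 RNA is at 4.15.

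Other class I heavy chain genes were also higher in tumor glia than in neuron-like nuclei. Their ratios ran from H2-T22 at 2.41-fold to H2-Q4 at 17.0-fold, for 5 of the 6, where 28.9% of genes were at least 2-fold higher. All of these but H2-T22 reached 10 CPM through tumor glia alone. H2-M3 was low in both, at 2.52 and 3.32 CPM. H2-Q4 was at 70.4 CPM in tumor glia, 69.2 in oligodendrocyte-like nuclei of Foxr2 p53LOF and 0.509 in those of Foxr2 alone. In oligodendrocyte-like nuclei H2-T22 was at 51.6 and 2.54 CPM in Foxr2 p53LOF and Foxr2 alone, and H2-T23 at 94.1 and 4.07 CPM, so that both reached 10 CPM in the first library only. In myeloid-like nuclei H2-T23 stood at 58.7 and 55.3 CPM and H2-Q4 at 78.1 and 8.65 CPM. H2-T23, a nonclassical heavy chain, was 2.64-fold higher in oligodendrocyte-like nuclei than in tumor glia (2.34 to 2.99). H2-Q6 went the other way, at 34.6 CPM in tumor glia against 9.82 CPM, 3.52-fold (2.56 to 4.97). These genes are related in sequence too, so their levels share the same uncertainty.

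The other factors of peptide loading and trimming differed in how far they moved. Of Calr, Canx, Pdia3, Erap1 and Tapbpl, 2 of 5 were at least 2-fold higher in oligodendrocyte-like nuclei of Foxr2 p53LOF than of Foxr2 alone, where 13.3% of genes were, and none was lower. Those 2, which reached 10 CPM in Foxr2 p53LOF only, were the peptide-trimming aminopeptidase gene Erap1, at 78.8 and 4.58 CPM or 17.2-fold (10.7 to 29.4), and Tapbpl, at 10.8 and 1.53 CPM. Canx, the chaperone calnexin, stood at 184 and 148 CPM, 1.24-fold.

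In oligodendrocyte-like nuclei the proteasome genes split by kind. Psme1 and Psme2, the activator subunits that interferon induces, were 2.85- and 3.31-fold higher in those of Foxr2 p53LOF. In the other classes neither reached 2-fold, at 1.62- and 1.80-fold in neuron-like, 1.23- and 1.47-fold in myeloid-like and 0.951- and 0.571-fold in OPC-like nuclei, where both had 4 UMIs in Foxr2 p53LOF. The constitutive catalytic genes Psmb5, Psmb6 and Psmb7 were lower in oligodendrocyte-like nuclei of Foxr2 p53LOF. Psmb5 was at 25.5 and 99.9 CPM, Psmb6 at 25.3 and 112.7 CPM and Psmb7 at 63.1 and 145 CPM in Foxr2 p53LOF and Foxr2 alone. They were also lower in OPC-like, neuron-like and myeloid-like nuclei, with Psmb7 at a log2 ratio of -0.47 in the last. The median log2 ratio of all genes was -0.22, -0.05 and -0.14 in these classes, and -0.06 in oligodendrocyte-like nuclei. The share of all genes at least 2-fold lower is not given here. Since the sign was the same in these 4 classes, it was not particular to oligodendrocyte-like nuclei. Within Foxr2 p53LOF, Psmb5 and Psmb6 were 2.54- and 2.42-fold higher in tumor glia than in neuron-like nuclei.

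Among the regulators, Irf1, a transcription factor that interferon induces, was at 186 CPM in tumor glia, 65.1 in oligodendrocyte-like and 7.15 in neuron-like nuclei of Foxr2 p53LOF. It was 2.86-fold higher in tumor glia than in oligodendrocyte-like nuclei (2.53 to 3.25) and 26.0-fold higher than in neuron-like nuclei (22.4 to 30.4). The factors of the RFX complex that works with NLRC5 were low, with Rfxap at 8.39 CPM in tumor glia and lower in oligodendrocyte-like nuclei of Foxr2 p53LOF than of Foxr2 alone (8.35 and 20.9 CPM). Rfx5 and Rfxank were at 16.6 and 10.7 CPM in tumor glia and below 10 CPM in the oligodendrocyte-like nuclei of both libraries, at 4.67 against 2.54 CPM for Rfx5 and 7.12 against 2.54 CPM for Rfxank. Irf1 was 36.6-fold (17.5 to 91.8) and Irf2, a related factor, 3.33-fold (2.80 to 3.96) higher in those of Foxr2 p53LOF.

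Ifng, the gene of interferon gamma, was at 61.6 CPM in T/NK-like nuclei and at 3.70 CPM or below in all other classes of both libraries. The receptor gene Ifngr1 was at 14.8 CPM in tumor glia, 15.7 in oligodendrocyte-like, 146 in myeloid-like and 345 in T/NK-like nuclei of Foxr2 p53LOF. All 4 receptor genes were at least 2-fold lower in tumor glia than in myeloid-like nuclei, where 16.8% of genes were. Their log2 ratios ran from -3.66 for Ifngr2 to -1.88 for Ifnar2. Between the libraries 0 of 3 receptor genes of at least 10 CPM differed by 2-fold in oligodendrocyte-like nuclei. Of all genes 13.3% were at least 2-fold higher there, so a count of 0 in 3 does not set the receptor genes apart. The T/NK-like cluster held 117 nuclei from Foxr2 p53LOF and 1 from Foxr2 alone.

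Over 24 groups of at least 50 nuclei, each the nuclei of 1 cluster from 1 library, the genes whose level went most with the summed members were Rbm25 (Pearson r = 0.97), Stat3 (r = 0.97), Dtx3l (r = 0.96), Msn (r = 0.96) and Zc3hav1 (r = 0.96), among 15396 genes outside the lists. These are descriptions over groups that share 2 libraries and their depth. Dtx3l was at 67.7 CPM in tumor glia, 30.9 in oligodendrocyte-like nuclei of Foxr2 p53LOF and 1.02 in those of Foxr2 alone.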

How the data were processed

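Nuclei of 3 Multiome libraries (6 records) were grouped by the labels. The deposited counts are UMIs of each gene and transposition events of each peak, by barcode, which the authors made per library with Cell Ranger ARC 2.0.0 on mm10 plus vector sequences, with no further normalization. Peak counts were even in 80.7% and 82.9% of nonzero entries, so they were divided by 2 to give fragments.

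Nuclei were kept with at most 5% mitochondrial UMIs, at least 400 genes and 400 fragments, and below the upper limits of the study's methods. Limits on start site enrichment and nucleosome signal were not applied. Scrublet in scanpy 1.11.5, with an expected rate of 8%, removed 299 of 8712 nuclei (3.43%) of Foxr2 p53LOF and 529 of 8856 (5.97%) of Foxr2 alone. The 16740 nuclei were clustered without integration (2000 variable genes, 30 components, 20 neighbours, Leiden resolution 0.5, leidenalg 0.10.2, seed 100), with members, pathway genes and vectors left out. Clusters were named from marker genes, by thresholds set after the data were seen. A cluster needed at least 3 markers, a median log2 fold of 2 and a lead of 1 over other kinds of cell. In Foxr2 p53LOF 99 nuclei (1.18%) stayed unnamed. Tumor glia follow the vector rule given with the results.

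UMIs were summed per class and given as CPM (per 1000000). With 1 library per genotype no test was made. Ratios carry 95% counting intervals (scipy 1.17.1), and a class at 0 was set to a floor of 3 counts. A gene counted as higher or lower at 2-fold if it had at least 10 CPM, or 10 fragments per 1000000 fragments in peaks (FPM), in 1 of both classes. The fold calls and intervals were tried on simulated Poisson counts. These hold no spread between nuclei, libraries or animals, so they say nothing about such spread. Promoters came from RefSeq GRCm38.p6, where 8 of 10 members had an entry, and Tap2 and Nlrc5 had none. Gene starts for peaks came from the deposited features. The genes named are all 10 members and the 5 genes most like the summed members. Of the 5 pathway lists, counts or values are given for some genes, the regulators by single values only, and 1 gene is not reported here. Members and lists were chosen with earlier results of these data known. Median depth was 5578 and 3632 UMIs per nucleus, and classes of under 100 nuclei have the widest intervals.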

Additional observations from a re-analysis of the deposited data

How the results depend on the processing

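Values below are log2 ratios. Among summed ratios, those between the libraries in myeloid-like and neuron-like nuclei changed sign, under the GFP-based subtraction and no other alternative. That of neuron-like nuclei did so only with negative member levels kept. Tumor glia against neuron-like nuclei (2.74) was 2.79 with vector-positive tumor nuclei only, 2.60 as a mean over nuclei, 2.45 centred on all genes, 2.65 without H2-K1 and H2-D1 and 3.05 without B2m. All 10 members were at least 2-fold higher there, or 9 as a mean over nuclei and when centred. Tumor glia against oligodendrocyte-like nuclei (-0.24) was -0.21 with minimums of 1000 genes and 1000 peak counts, -0.035 without doublet removal, -0.20 with vector-positive nuclei, -0.29 as a mean over nuclei, -0.50 centred, -0.12 without both heavy chains and -0.0099 without B2m, so its size rests on these choices. Tumor glia against myeloid-like nuclei (-0.48) was -0.38 without doublet removal, -0.53 at Leiden resolution 1.0, -0.44 with vector-positive nuclei, -0.62 as a mean over nuclei, -0.58 centred, -0.29 without both heavy chains and -0.36 without B2m.

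Between the libraries, the oligodendrocyte-like ratio (3.53) was 3.84 with those higher minimums, 3.30 without doublet removal, 4.03 without both heavy chains, 3.39 without B2m and 3.13 after GFP-based subtraction, whether or not members below 0 were kept. The myeloid-like ratio (0.36) was 0.63 without doublet removal, 0.50 as a mean over nuclei, 0.46 centred, 0.092 without both heavy chains, 1.25 without B2m, the member with the lowest ratio there, and -0.025 after either GFP-based subtraction. The neuron-like ratio (2.06) was 2.15 as a mean over nuclei, 1.93 without both heavy chains, 2.38 without B2m, 0.61 after GFP-based subtraction with members below 0 set to 0 and -0.14 with them kept. Per fragment in promoters, the summed peaks of tumor glia were at 0.91 against neuron-like and -0.43 against myeloid-like nuclei, from 0.75 and -0.67. Leaving out the mature astrocyte-like cluster, limiting myeloid-like nuclei to the cluster led by P2ry12 and Siglech, and the GFP-based subtraction were chosen after seeing the data. The OPC-like ratio (2.21), whose alternatives were all added after seeing the data, was 1.51 after that subtraction with members below 0 set to 0 and 1.46 with them kept. For single members, 341 of 438 alternatives with a ratio stayed within the counting interval, 95 moved, and 2 that differed by 2-fold changed sign, Tap2 (-0.34) and Psmb8 (-0.66) in OPC-like nuclei after the subtraction. It also turned H2-D1 and Psmb10 in myeloid-like and Psmb10 in neuron-like nuclei, and H2-K1, Tap1 and Nlrc5 in neuron-like and Nlrc5 in OPC-like nuclei, which came out below 0 and have no ratio. Some members that differed by less than 2-fold, such as Psmb8 between tumor glia and myeloid-like nuclei, changed sign under other alternatives as well.

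No paired analysis was possible because counts of 1 library per genotype were analysed here, so that no library could be left out either. Tap1 and Psmb9 had 0 and 1 of 3932150 UMIs in oligodendrocyte-like nuclei of Foxr2 alone, so their ratios there are a bound and a wide interval. Thinned to 500 UMIs, a member was read in 61.1% of tumor glia and 16.8% of neuron-like nuclei of Foxr2 p53LOF.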

Other observations

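All but 3 of the 1721 myeloid-like nuclei of Foxr2 p53LOF fell into 3 clusters. The 719 nuclei led by P2ry12 and Siglech, genes of microglia, held 3007 CPM of the summed members, the 803 led by Mmp12 and Msr1, genes of macrophages, held 2836 CPM, and the 196 led by Clec9a and Xcr1, genes of cross-presenting dendritic cells, held 3136 CPM. Tap1 was at 187 CPM (158 to 219) in the Clec9a cluster, against 94.2 CPM (83.8 to 106) and 105 CPM (92.3 to 118) in the P2ry12 and Mmp12 clusters. Psmb9 was at 130 CPM there (106 to 158), against 55.6 and 62.5 CPM. B2m went the other way, at 916 CPM in the Clec9a cluster and 1088 CPM in the P2ry12 cluster.

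The 99 unnamed nuclei of Foxr2 p53LOF had a median of 11325 UMIs, and 19.2% of them held a vector count. Their median log2 fold was 4.25 for the myeloid markers and 4.23 for the next kind of cell, too close for a name. Whether they were mixed nuclei that passed doublet removal was not tested. Their summed members stood at 2181 CPM (2099 to 2266) and Nlrc5 at 536 CPM.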
